A study of Mus musculus with 20 samples.

Results

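The genes described here were 10 chromatin remodelling ATPases and partner subunits outside the CHD family: Smarca4, Smarca2, Smarcb1 and Arid1a of SWI/SNF, Smarca5 and Smarca1 of ISWI, Ino80, Ep400, Hells and Atrx. They were chosen by symbol, and all 10 were present among the 53722 genes of the oocyte table and the 55291 genes of the spermatogonia table. Their levels were followed over 20 RNA-seq libraries of mouse germ cells in which Chd4, the ATPase of the NuRD complex, had been targeted. The libraries formed 10 groups of 2.

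Non-growing oocytes (NGO) were sampled at postnatal days 1, 5 and 10 (P1, P5, P10), growing oocytes (GO) at P10, and undifferentiated spermatogonia of the testis at P3. At P1, P5 and P3 the knockout (DcKO) was Chd4 f/- with Ddx4-Cre Tg/+, and its control (Dctrl) was Chd4 f/+ with the same Ddx4-Cre Tg/+, so that these controls had a floxed allele, a wild-type allele and Cre. At P10 the knockout (GcKO) was Chd4 f/f with Gdf9-iCre Tg/+, and its control (Gctrl) was Chd4 f/f with no Cre. Ddx4-Cre is driven by a germ cell promoter and Gdf9-iCre by an oocyte promoter. All groups descended from FVB/NJ, 129S1/Sv and C57BL/6 and had at least 1 floxed Chd4 allele. The labels named no sort or gate and did not say that replicates came from separate animals, so p-values measure only the spread between libraries, which may be technical.

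SNF2-type ATPases use ATP to slide, evict or exchange nucleosomes. SWI/SNF complexes open chromatin and hold either SMARCA4 (BRG1) or SMARCA2 (BRM) as their motor, with SMARCB1 as a core subunit and ARID1A as the DNA-binding subunit of the BAF form. The ISWI motors SMARCA5 (SNF2H) and SMARCA1 (SNF2L) space nucleosomes. INO80 and EP400 are motors of complexes that act on the histone variant H2A.Z. HELLS (LSH) supports DNA methylation of repeats and meiotic chromosome synapsis, and ATRX works with DAXX to deposit a replacement form of histone H3 in heterochromatin.

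By the GENCODE M21 annotation of GRCm38, the SWI/SNF members were Smarca4 (ENSMUSG00000032187, chr9:21616169-21704230, plus strand), Smarca2 (ENSMUSG00000024921, chr19:26605050-26778322, plus strand), Smarcb1 (ENSMUSG00000000902, chr10:75896769-75921617, minus strand) and Arid1a (ENSMUSG00000007880, chr4:133679008-133756769, minus strand). The ISWI motors were Smarca5 (ENSMUSG00000031715, chr8:80698507-80739497, minus strand) and Smarca1 (ENSMUSG00000031099, chrX:47809368-47892974, minus strand). Ino80 (ENSMUSG00000034154) was at chr2:119373042-119477687 and Ep400 (ENSMUSG00000029505) at chr5:110664373-110770717, both on the minus strand. Hells (ENSMUSG00000025001, chr19:38930915-38971051, plus strand) shared its chromosome with Smarca2, and Atrx (ENSMUSG00000031229, chrX:105797615-105929403, minus strand) shared the X with Smarca1. All 10 were protein coding.

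Stretches upstream of 3 start sites are printed because results below turn on these genes. The genes are Smarca4 and Smarca2, the alternative motors of SWI/SNF, and Smarca1, the ISWI motor at or near 0 in most oocytes. The stretches come from RefSeq on GRCm38.p6, read 5′ to 3′ on the gene's strand and exclude GENCODE M21 exons. That of Smarca2 stops at the first such exon base, 110 bases short of its RefSeq start. The RefSeq start of Smarca1 lies inside the boundaries that GENCODE M21 gives the gene. Capitals mark matches on either strand to the letters of a GC box (GGGCGG), of a CCAAT box, or of an E-box, which are CANNTG.
Smarca4 (chr9:21615919-21616168, plus strand): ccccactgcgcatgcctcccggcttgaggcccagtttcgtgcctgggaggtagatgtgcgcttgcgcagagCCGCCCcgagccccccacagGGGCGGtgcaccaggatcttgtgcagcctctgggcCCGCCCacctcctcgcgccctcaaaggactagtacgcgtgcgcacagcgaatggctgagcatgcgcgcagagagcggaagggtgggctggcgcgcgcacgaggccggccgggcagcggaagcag
Smarca2 (chr19:26604910-26605049, plus strand): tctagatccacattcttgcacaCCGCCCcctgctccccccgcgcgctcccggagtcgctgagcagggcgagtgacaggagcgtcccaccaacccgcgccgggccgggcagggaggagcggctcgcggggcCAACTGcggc
Smarca1 (chrX:47892614-47892863, minus strand): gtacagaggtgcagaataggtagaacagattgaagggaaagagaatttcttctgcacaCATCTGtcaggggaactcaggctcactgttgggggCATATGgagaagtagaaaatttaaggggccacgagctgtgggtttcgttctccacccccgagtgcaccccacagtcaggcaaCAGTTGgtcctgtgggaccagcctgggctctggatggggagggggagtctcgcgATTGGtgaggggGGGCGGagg

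All 10 members matched the RefSeq promoter table, with 11 start sites. Over the 250 bases upstream, the windows of the 8 autosomal members held 18 to 33 CpG dinucleotides, against a median of 6 over 32851 mouse promoter windows. Both X-linked members, Smarca1 and Atrx, had 6. A GC box was found in every member's windows except that of Atrx, and in 32.7% of all promoters. CCAAT was present upstream of Ino80, Smarca1 and Atrx, with a share of 33.8% in all promoters. Smarca2, Smarca1 and Atrx had an E-box, which 66.2% of all promoters held. TATAAA was in none of the 11 windows and in 12.4% of all promoters. A match describes these letters in these windows and is not a binding site.

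Levels are given as TPM, the authors' length-scaled values, in which the values of a library sum to a fixed total. TPM is relative: in bulk RNA, fewer cells of a type and less RNA per cell cannot be told apart. The 16 oocyte libraries had 15367732 to 26947327 recovered reads and the 4 spermatogonia libraries 18937119 to 30142375. Chd4 itself was at 24.7 and 31.2 TPM in P1 controls against 4.32 and 1.8997 in knockouts, the single age at which its decrease passed the test (log2 fold change -2.87, adjusted p = 0.0136 by limma). That call depended on 3 libraries: leaving out either P1 control replicate or knockout replicate 2 gave adjusted p of 0.101, 0.122 and 0.091, and a pseudocount of 0.1 gave 0.0626. At P5 Chd4 was at 14.5 and 17.9 TPM against 8.28 and 4.94 (adjusted p = 0.351). At P10 it was low in every library and the GcKO decrease was not resolved: 1.63 and 1.85 TPM in NGO controls against 1.34 and 0.247 in knockouts (adjusted p = 0.615), and 1.56 and 2.96 in GO controls against 0.631 and 1.54 (0.488). In spermatogonia Chd4 was at 249 and 286 TPM against 40.2 and 51.7 (adjusted p = 0.0671). There it passed with a filter at 5 TPM (0.0155), without control replicate 1 (0.0421) and without knockout replicate 2 (0.0455). Germ cell markers Ddx4 and Dazl were present in every library, and all 9 markers of undifferentiated spermatogonia were at or above 1 TPM in all 4 spermatogonia libraries. In spermatogonia 5 of those 9 were lower in both knockouts than in both controls.

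**Figure D1:**
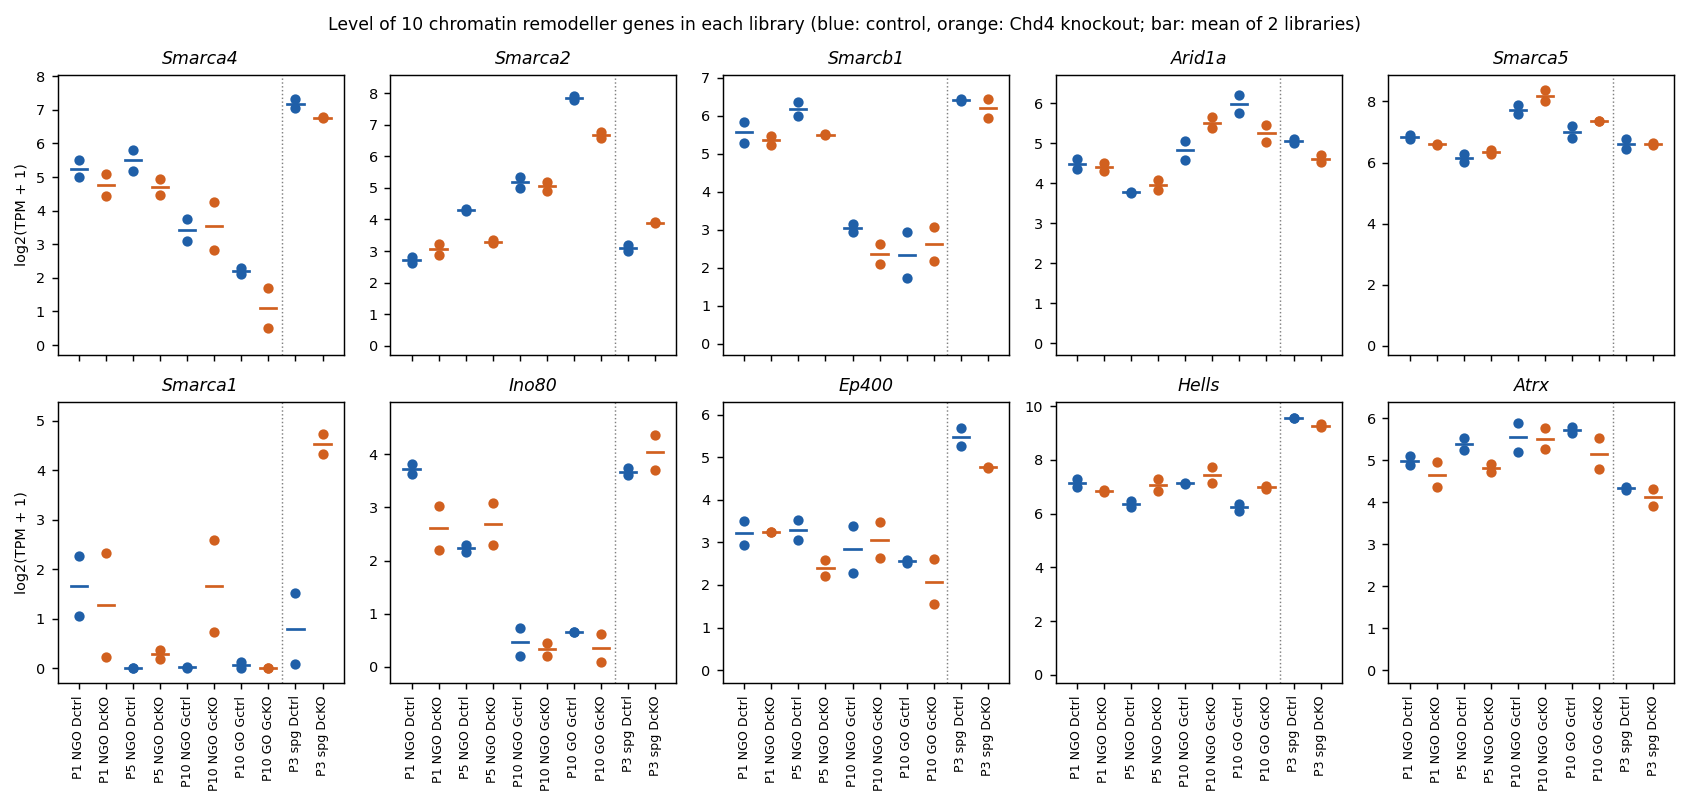
Level of each of the 10 genes, as log2(TPM + 1), in each library of the 10 groups; points are libraries, bars are group means, blue is control and orange is Chd4 knockout, and the dotted line separates the spermatogonia table (spg), which was normalized separately. In the control oocyte groups Smarca2 is higher in each later group and Smarca4 is lower at P10 than at P1 and P5, and Smarca1 is at or near 0 in most oocyte libraries.

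In control oocytes the SWI/SNF motors ran in opposite directions. Smarca4 was at 31.1 and 44.1 TPM at P1 and 55.1 and 35.5 at P5, then 12.5 and 7.51 in P10 NGO and 3.29 and 3.87 in P10 GO. Smarca2 was at 5.09 and 5.98 TPM at P1, 18.05 and 19.1 at P5, 30.8 and 39.8 in P10 NGO, and 242 and 221 in P10 GO. Every later control group was above the one before it for Smarca2, with no overlap between libraries. For Smarca4 the P1 and P5 controls overlapped, and both P10 groups lay below them.

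The 3 steps between control groups were tested with limma on log2(TPM + 1), with Benjamini-Hochberg adjustment over all 20470 genes and a threshold of 0.05. From P1 to P5, Smarca2 rose 3.36-fold in mean TPM (log2 fold change 1.59 ± 0.28 SE, adjusted p = 0.00705), the single member of 10 to pass where 4.7% of all genes passed and 2.72% rose. Without P1 control replicate 1 its adjusted p was 0.0841, and without P5 control replicate 2 it was 0.0512. Smarca4, by contrast, differed by 0.25 on the log2 scale between these ages (95% interval -0.95 to 1.45, adjusted p = 0.926).

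The step from P5 NGO to P10 NGO also changes genotype and Cre, from Chd4 f/+ with Ddx4-Cre to Chd4 f/f without Cre, and age cannot be told apart from these. Here 7 of 10 members passed, 4 higher and 3 lower, where 22.7% of all genes passed, 5.54% higher and 17.1% lower. All genes together had a median log2 fold change of -0.47 at this step, which quantile normalization moved to 0.03, so changes are to be read against that shift. Smarca4 fell by 2.08 on the log2 scale (4.52-fold lower mean TPM, adjusted p = 0.0180), and by 1.62 under quantile normalization. Its call was lost without P5 control replicate 1 (adjusted p = 0.130) or P10 NGO control replicate 2 (0.108). Smarca2 rose by 0.88 (adjusted p = 0.0398), with adjusted p of 0.156, 0.105 and 0.181 without P5 control replicates 1 and 2 and P10 NGO control replicate 2, 0.0816 with voom on recovered reads and 0.0972 with only the compared groups fitted.

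From P10 NGO to P10 GO, which share genotype and age, 4 of 10 members passed (2 higher, 2 lower), where 24.3% of all genes passed, 11% higher and 13.2% lower. Smarca2 rose 6.55-fold, from 35.3 ± 6.35 to 231 ± 15.1 TPM (SD, n = 2; log2 fold change 2.69, limma adjusted p = 2.79e-05), and stayed past the threshold under every alternative setting and whichever library was left out. Smarca4 was 2.80-fold lower in mean TPM, with libraries that did not overlap, and did not pass (log2 fold change -1.23, adjusted p = 0.139). Between P1 NGO and P10 GO controls the mean of Smarca2 differed 41.8-fold and that of Smarca4 10.5-fold in the other direction.

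As a share of the summed TPM of both motors, Smarca2 made up 13.01% ± 1.51 (SD, n = 2) at P1, 29.8% ± 7.33 at P5, 77.6% ± 9.21 in P10 NGO and 98.5% ± 0.269 in P10 GO of controls. In knockouts the shares were 22.6%, 26.2%, 74.4% and 98.6%. In spermatogonia the share was 5.04% in controls and 11.5% in knockouts. The share depends on the gene length behind TPM: the union of exons is 14269 bases for Smarca2 and its longest coding transcript 5921, against 6475 and 6376 for Smarca4. Rescaled to the longest coding transcripts, a calculation added after seeing these lengths, control shares were 26.2%, 49.9%, 89.0% and 99.4% over the 4 oocyte groups, and 11.2% in spermatogonia. The order of the control groups was the same on either length.

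**Figure D2:**
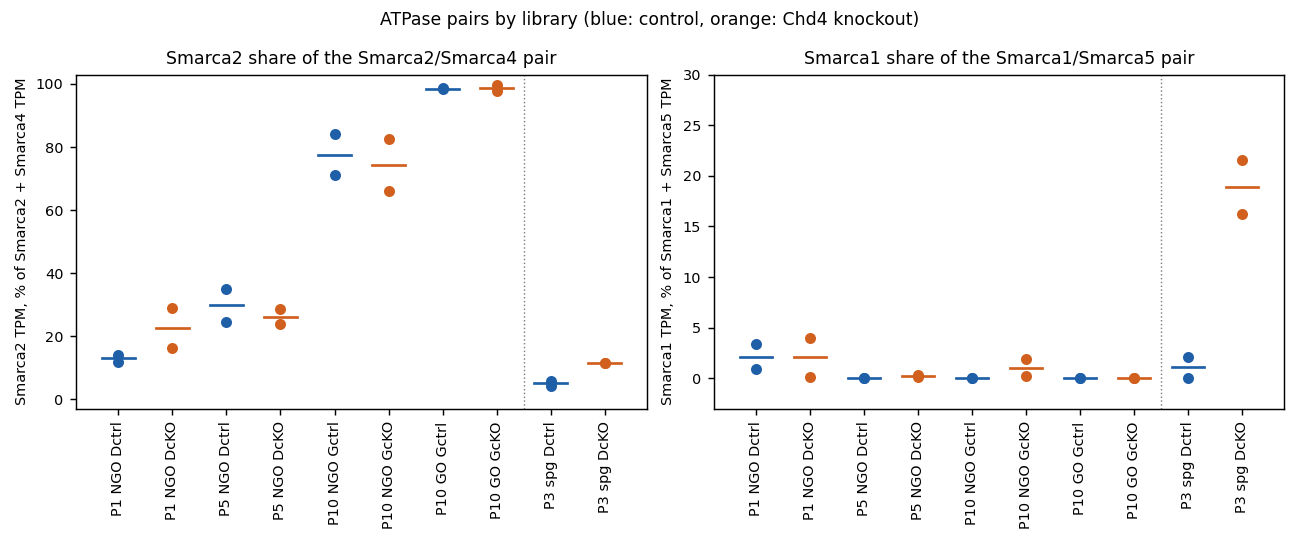
Share of the summed TPM (percent, vertical axis) taken by Smarca2 in the Smarca2 and Smarca4 pair (left) and by Smarca1 in the Smarca1 and Smarca5 pair (right), by library; bars are group means, blue is control, orange is Chd4 knockout, and spg is spermatogonia. The Smarca2 share goes from 11.9% to 14.1% in P1 controls to 98.3% to 98.7% in growing control oocytes, and the Smarca1 share is under 4% in every library except the spermatogonia knockouts, at 16.2% and 21.6%.

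The SWI/SNF core gene Smarcb1 followed Smarca4 rather than Smarca2 in the direction of its values. It was at 38.1 and 56.3 TPM in P1 controls and 62.6 and 81.3 at P5, and at 6.62 and 7.93 in P10 NGO and 2.29 and 6.76 in P10 GO. The P10 values lay below all P1 and P5 values. At the P5 to P10 NGO step Smarcb1 fell by 3.13 on the log2 scale (9.89-fold lower mean TPM, adjusted p = 0.000507 by limma), and this call held under every setting tried. Between P10 NGO and GO controls its libraries overlapped (log2 fold change -0.71, adjusted p = 0.328).

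Arid1a, the BAF-specific subunit, had its lowest control level at P5 and its highest in growing oocytes. Its libraries were at 19.4 and 23.4 TPM at P1, 12.8 and 12.4 at P5, 32.3 and 22.9 in P10 NGO, and 72.0 and 52.6 in P10 GO. It rose from P5 to P10 NGO (2.19-fold in mean TPM, log2 fold change 1.05, adjusted p = 0.0279 by limma) and again from NGO to GO (2.26-fold, 1.15, adjusted p = 0.0160). The first call gave adjusted p of 0.102, 0.0999 and 0.144 without P5 control replicates 1 and 2 and P10 NGO control replicate 1, 0.0532 with voom and 0.0912 with the compared groups only. The second gave 0.102 and 0.127 without P10 NGO control replicate 2 and P10 GO control replicate 1, and 0.0647 with the compared groups only. So 2 of the 4 SWI/SNF members were higher in P10 NGO than at P5 and 2 were lower.

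Smarca5, the ISWI motor with the higher level, was among the 3 members with the highest mean TPM in each of the 10 groups. Ranks between members depend on the gene length behind TPM and were not rescaled. For Smarcb1 the union of exons is 7930 bases and the longest coding transcript 1660. Control libraries had 119 and 109 TPM of Smarca5 at P1, 76.5 and 63.2 at P5, 233 and 192 in P10 NGO, and 146 and 111 in P10 GO. All P10 NGO values lay above all other control values. It rose 3.04-fold from P5 to P10 NGO (log2 fold change 1.59, adjusted p = 0.000243 by limma), a call that held under every setting tried. It fell by 0.73 from NGO to GO (adjusted p = 0.0228), and that call was lost without P10 NGO control replicate 1 (adjusted p = 0.127) or P10 GO control replicate 2 (0.178), under quantile normalization (0.138) and with the compared groups only (0.0787).

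Smarca1, the other ISWI motor, was close to absent from control oocytes after P1. It was at 1.06 and 3.81 TPM at P1, from 49 and 186 reads, at 0 reads in both P5 control libraries, at 1 and 0 reads in P10 NGO and at 0 and 4 reads in P10 GO. A count of 0 allows up to 3 reads, 0.0542 and 0.0544 TPM in the P5 controls. The P1 and P5 libraries did not overlap, but the difference on the log2(TPM + 1) scale did not pass (-1.65, adjusted p = 0.246). In the count-based alternative, voom on recovered reads, it did (adjusted p = 0.0146).

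Ino80, the motor of the INO80 complex, was highest at P1 and under 1 TPM in all P10 oocytes. Control libraries had 11.3 and 13.1 TPM at P1, 3.48 and 3.93 at P5, 0.667 and 0.147 in P10 NGO and 0.580 and 0.571 in P10 GO. The P1, P5 and P10 control values did not overlap. From P5 to P10 NGO it fell by 1.76 (adjusted p = 0.0157 by limma), but under quantile normalization the value was -0.62 (adjusted p = 0.417). Leaving out P5 control replicate 1 or 2, or P10 NGO control replicate 2, gave adjusted p of 0.0627, 0.0693 and 0.0946. The P10 NGO values rest on 35 and 7 reads. From P1 to P5 the difference was -1.49 (adjusted p = 0.0994), which passed under quantile normalization (0.0435) and with the compared groups only (0.0357).

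Ep400, the motor of the TIP60-EP400 complex, stayed between 1.92 and 10.6 TPM in all 16 oocyte libraries, and no step between control groups passed the test. Its group means ran from 3.51 ± 2.25 TPM in P10 GO knockouts to 8.92 ± 2.35 in P5 controls (SD, n = 2), and neighbours in that order overlapped throughout. At the P5 to P10 NGO step its value was -0.45, and 0.22 under quantile normalization.

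Hells, the DNA methylation cofactor, alternated between control groups. It was at 126 and 155 TPM at P1, 88.6 and 75.6 at P5, 137 and 142 in P10 NGO, and 67.9 and 80.8 in P10 GO. The P5 and growing oocyte controls overlapped each other and lay below the P1 and P10 NGO controls. Hells rose by 0.76 from P5 to P10 NGO (adjusted p = 0.0417 by limma), and leaving out any of the 4 libraries gave an adjusted p from 0.0911 to 0.181, no filter on low values gave 0.0536 and voom 0.165. It fell by 0.90 from NGO to GO (adjusted p = 0.0167), with 0.0511, 0.0663 and 0.108 without P10 NGO control replicates 1 and 2 and P10 GO control replicate 1, and 0.0547 with voom.

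For Atrx, the heterochromatin remodeller, libraries of neighbouring groups overlapped in the order of the means. Its oocyte libraries spanned 19.7 to 58.3 TPM with a median of 36.7, and no control step passed (log2 fold changes 0.40, 0.16 and 0.17 in order of the steps). The highest group mean, 51.7 ± 3.85 TPM (SD, n = 2), was in P10 GO controls and the lowest, 24.8 ± 7.28, in P1 knockouts.

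**Figure D3:**
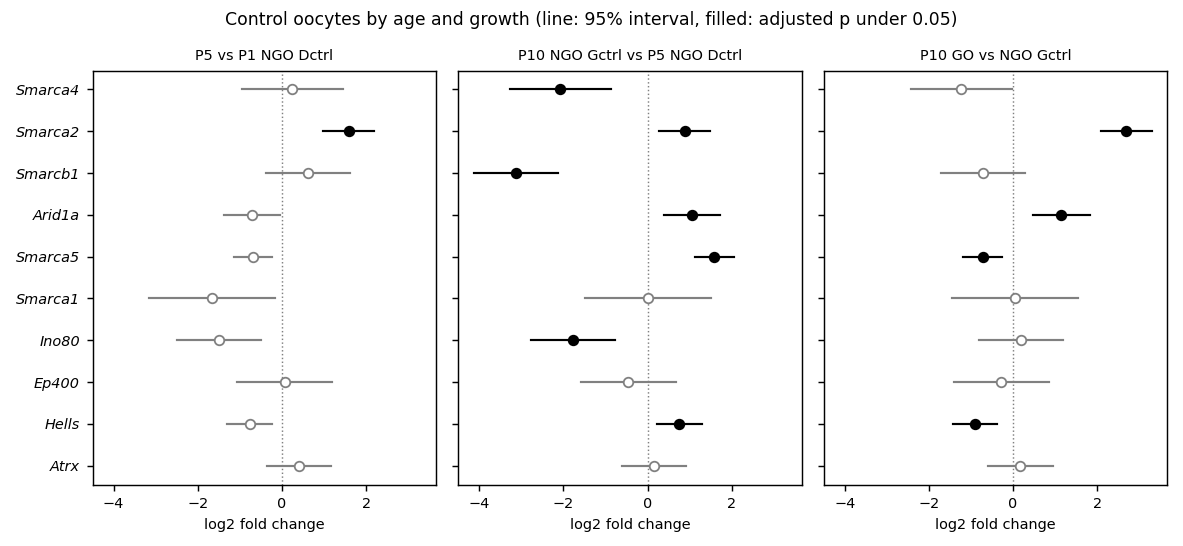
Log2 fold change of each gene (horizontal axis, on the log2(TPM + 1) scale) at the 3 steps between control oocyte groups, with lines for 95% intervals and filled points for adjusted p under 0.05. A single point is filled at the P1 to P5 step, 7 at the P5 to P10 NGO step and 4 at the NGO to GO step, and Smarca2 is filled to the right at each.

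The design's main comparisons, knockout against control, were then read for the same genes. In P1 and P5 NGO none of the 10 members passed, where 1.7% and 1.36% of all genes passed. At an unadjusted p under 0.05 there was 1 member at P1 and 2 at P5, where 10.2% and 11.8% of all genes were. At P1 the member was Ino80, at 11.3 and 13.1 TPM in controls against 7.13 and 3.59 in knockouts (log2 fold change -1.11, adjusted p = 0.394). The libraries did not overlap, which was also so for Smarca2, Smarca5 and Hells at P1. How many of all genes had no overlap was not counted, here or below, so lack of overlap is a description only. At P5 Ino80 was at 3.90 and 7.49 TPM in knockouts and overlapped its controls. Among the 9 oocyte markers, Figla, Gdf9 and Zp3 were lower in both P1 knockouts than in both controls, and Dazl and Nobox were higher. The part of these markers in the P1 values was not tested.

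At P5 the members with an unadjusted p under 0.05 were Smarca2 and Hells. Smarca2 was at 18.05 and 19.1 TPM in controls and at 8.44 and 9.26 in knockouts, 2.10-fold lower in the mean (log2 fold change -0.99, 95% interval -1.60 to -0.38, adjusted p = 0.123). Hells was at 88.6 and 75.6 TPM in controls and 113 and 156 in knockouts (0.69, adjusted p = 0.242). Neither gene's groups overlapped, nor did those of any other member except Ino80. The log2 fold changes of those others were -0.80 for Smarca4, -0.68 for Smarcb1, -0.89 for Ep400 and -0.57 for Atrx. They were 0.19 for Arid1a, 0.20 for Smarca5 and 0.28 for Smarca1. At P1 Smarca2 and Hells had log2 fold changes of 0.35 and -0.31. Set against P1, the P5 effect differed by -1.34 on the log2 scale for Smarca2 (adjusted p = 0.236) and by 1.00 for Hells (adjusted p = 0.382), and no member passed that test, where 0.313% of all genes passed. For this difference 3 of 10 members, Smarca2, Hells and Ino80, had an unadjusted p under 0.05, against 7.35% of all genes. For Ino80 the difference was 1.57 (adjusted p = 0.589 by limma). The granulosa and Sertoli list summed to 20.8 and 58.8 TPM over 10 genes in P5 knockouts against 6.79 and 3.82 in controls. Most of that was Inha, and the other 9 genes summed to 7.67 and 14.95 against 6.71 and 1.64. In 5 of the 10 both knockouts lay above both controls, and Inhbb was at 0 in all 4 libraries. Of the 9 oocyte markers, Figla, Nobox, Gdf9 and Zp3 were lower in both knockouts than in both controls and Dazl and Sohlh1 higher. Their part in these values was not tested.

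In P10 NGO 0 of 10 members passed limma's test, where 1.92% of all genes passed, and 3 had an unadjusted p under 0.05, all higher in the knockout, against 15.6% of all genes. They were Arid1a (40.5 and 48.9 TPM against 32.3 and 22.9, log2 fold change 0.69, adjusted p = 0.308), Smarca5 (258 and 327 TPM against 233 and 192, 0.46, adjusted p = 0.315) and Smarca1. Smarca1 had 287 and 32 reads in the knockouts, 4.99 and 0.648 TPM, against 1 and 0 reads in controls (1.64, adjusted p = 0.272). Voom on recovered reads was the 1 alternative that called it (adjusted p = 0.0433). The knockout library with 4.99 TPM of Smarca1 had a sum of 8.46 TPM over the granulosa and Sertoli list, and the other 3 P10 NGO libraries had 0.0596 to 1.44. In that library Sox9, Fst and Wt1 were above 1 TPM and 6 of 10 list genes, with Foxl2, Amh and Amhr2 among them, were at 0. Among the 9 oocyte markers, Ddx4, Sohlh1, Gdf9 and Zp3 were lower in both P10 NGO knockouts than in both controls. Dazl, Nobox and Lhx8 were higher. The part of all these markers in the member values was not tested.

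In growing oocytes 1 of 10 members passed, where 13.8% of all genes passed, 9.12% higher and 4.69% lower. Smarca2 fell from 242 and 221 TPM in controls to 94.2 and 108 in knockouts, 2.29-fold lower in the mean (log2 fold change -1.19 ± 0.28 SE, 95% interval -1.80 to -0.58, limma adjusted p = 0.0132). The knockout values lay between those of non-growing and growing controls. So did those of 2 of 9 oocyte markers, the transcription factor genes Figla and Sohlh1. In growing knockouts Figla was at 964.5 and 753 TPM, against 316 and 468 in growing and 1381 and 1704 in non-growing controls. Likewise Sohlh1 was at 22.5 and 45.2 TPM, against 1.12 and 0.935 in growing and 95.2 and 89.2 in non-growing controls. Gdf9 and Zp3, which were higher in GO than in NGO controls, were higher still in GO knockouts, at 750 and 734 TPM against 720 and 656 for Gdf9. Nobox and Dppa3 were also above both control groups. Dppa3 was at 94340 and 105500 TPM in GO knockouts, against 45240 and 46800 in GO and 58010 and 62510 in NGO controls. Dazl was lower in both GO knockouts than in both GO controls. The part of these differences in the Smarca2 value was not tested. The call was lost without GO control replicate 1 (adjusted p = 0.0863), GO control replicate 2 (0.0576) or GO knockout replicate 1 (0.0621), with values from -1.26 to -1.09. GO knockout replicate 1 also had 98.6 TPM of Pecam1, against at most 3.23 in the other GO libraries. The 4 other endothelial markers summed to 3.73 TPM there and to 0.475 to 3.41 in the others, with Cdh5, Kdr and Emcn at 0 in that library. Smarca2 was at 94.2 TPM in that library and at 108 in the other knockout library, and its log2 fold change without that library was -1.09.

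The other motor, Smarca4, was at 3.29 and 3.87 TPM in growing controls and at 2.22 and 0.429, from 108 and 18 reads, in knockouts (-1.09, 95% interval -2.29 to 0.11, adjusted p = 0.243, and 0.0470 under quantile normalization). Smarca2 made up 98.5% of the pair in controls and 98.6% in knockouts. Hells was at 67.9 and 80.8 TPM in growing controls and at 121 and 129 in knockouts, with no overlap (0.75, 95% interval 0.22 to 1.27, adjusted p = 0.0632, and 0.0499 with a filter at 5 TPM). Arid1a was at 72.0 and 52.6 TPM against 42.8 and 31.8 (-0.72, adjusted p = 0.160). The groups did not overlap for Arid1a, which was higher in the knockout among non-growing oocytes.

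The difference of the knockout effect between growing and non-growing oocytes was tested directly. No member passed, where 7.46% of all genes passed, and 2 had an unadjusted p under 0.05, against 21.1% of all genes. These were Arid1a (-1.41, 95% interval -2.36 to -0.46, adjusted p = 0.0732) and Smarca2 (-1.07, adjusted p = 0.131). Voom called both, at 0.0337 and 0.0347, and quantile normalization called Arid1a (0.0454).

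**Figure D4:**
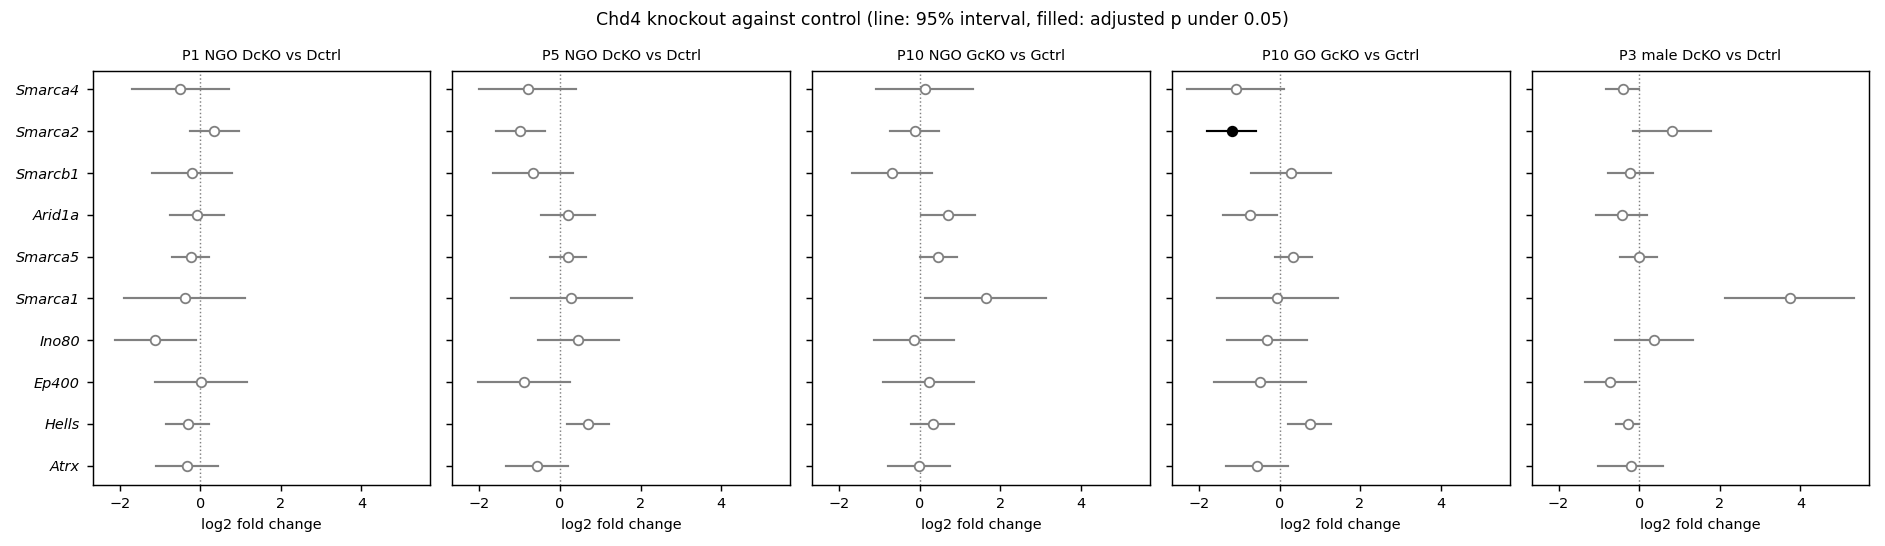
Log2 fold change of each gene, knockout over control (horizontal axis, on the log2(TPM + 1) scale), in the 5 cell groups, with lines for 95% intervals and filled points for adjusted p under 0.05; the right panel is spermatogonia. Smarca2 in growing oocytes, at -1.19, is the single filled point, and Smarca1 in spermatogonia, at 3.73, has the widest interval.

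In P3 spermatogonia the order of levels was unlike that of P10 oocytes, though the tables were normalized separately and levels across them were not tested. Hells led, at 752 and 762 TPM in controls, as it did in every P1 and P5 oocyte group. Smarca4 followed at 131 and 158 on union exon lengths. Smarca2 was at 8.07 and 7.06 TPM, Smarcb1 at 83.3 and 85.3, Ep400 at 37.6 and 50.5, and Ino80 at 11.2 and 12.4. Smarca4 was thus the higher of the SWI/SNF motors in these germ cells, as in P1 oocytes, on either gene length. In P5 controls it was the higher on union exon lengths only, since Smarca2 made up 49.9% of the pair on the longest coding transcripts.

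Between knockout and control spermatogonia 0 of 10 members passed limma's test, where 0% of the 18671 genes passed, and 3 had an unadjusted p under 0.05. Over all genes 3004, or 16.1%, were at that p. Smarca1 was at 1.86 and 0.0567 TPM in controls, from 68 and 3 reads, and at 25.7 and 18.9 TPM in knockouts, from 853 and 685 reads. Both knockout libraries lay above both controls, by 23.3-fold in the mean (log2 fold change 3.73, 95% interval 2.13 to 5.33, adjusted p = 0.143). Over the alternatives its adjusted p ran from 0.0758 to 0.439. Its share of the ISWI motor pair was 1.09% in controls and 18.9% in knockouts, with Smarca5 at 85.8 and 108 TPM against 93.1 and 97.6.

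Some markers of other testis cells were also higher in the knockouts, and others were not. The 10 genes of the granulosa and Sertoli list summed to 440 and 456 TPM in controls and 601 and 533 in knockouts, most of it Dmrt1, which germ cells also express. Without Dmrt1 the groups overlapped, at 122 and 65.3 against 113 and 122 TPM. In 4 of the 10, Amh, Inhbb, Sox9 and Dmrt1, both knockouts lay above both controls, with Sox9 at 8.53 and 6.16 against 11.4 and 27.3 TPM. Amhr2 lay below, at 12.8 and 7.27 TPM in controls and 0.0919 and 4.47 in knockouts, while Fst, Inha, Gata4 and Wt1 overlapped and Foxl2 was at 0 throughout.

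The 9 stromal and Leydig genes summed to 9.49 and 13.9 TPM in controls against 36.6 and 45.6 in knockouts, and to 3.89 and 6.05 against 12.4 and 18.2 without Col1a1. Of these, 3 were higher in both knockouts and none lower, and Hsd3b1 and Lum were at 0 in all 4 libraries. For the 5 endothelial genes the sums were 26.1 and 22.8 against 43.9 and 49.96, with 3 higher and none lower, and without Pecam1 they were 20.45 and 19.3 against 29.3 and 20.65. The 6 blood genes summed to 27.9 and 37.7 against 69.8 and 98.4, nearly all of it Cd68, and without Cd68 the groups overlapped, at 1.68 and 0.0126 against 6.44 and 1.39. Among the 9 markers of undifferentiated spermatogonia, Ddx4, Zbtb16, Gfra1, Nanos3 and Ret were lower in both knockouts than in both controls, and none was higher. Among the 9 oocyte markers, Figla, Nobox, Sohlh1, Lhx8 and Dppa3 were higher in both knockouts, and Ddx4 and Gdf9 lower. The part of all these markers in the Smarca1 value was not tested.

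The other members with an unadjusted p under 0.05 in spermatogonia were Ep400 and Hells. Ep400 was at 37.6 and 50.5 TPM in controls and 25.99 and 26.3 in knockouts (-0.72, adjusted p = 0.277). Hells was at 752 and 762 TPM against 643 and 597 (-0.29, adjusted p = 0.309). Smarca4, at 106 and 109 TPM in knockouts, lay below its controls (-0.41, adjusted p = 0.317), and Smarca2, at 13.8 and 14.1, lay above them (0.81, adjusted p = 0.388). The groups did not overlap for any of these 4 genes, and how many of all genes did not overlap was not counted. Smarcb1, Smarca5, Ino80 and Atrx overlapped between knockout and control, and Arid1a did not (-0.44, adjusted p = 0.481).

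The 5 lists of 84 partner genes were read beside the members: SWI/SNF subunits, ISWI subunits, subunits of INO80, SRCAP and TIP60, partners of HELLS and ATRX, and other SNF2 ATPases. Median log2 fold changes are given beside those over all genes. Of the 53 partner calls named below, 26 held whichever library was left out, 21 held under every alternative, and none changed direction. Where a statement says that a call held throughout, both kinds of alternative are meant.

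From P1 to P5 in controls Dpf3, a SWI/SNF reader subunit, was the single partner to rise (102.6 to 201 TPM, adjusted p = 0.0211 by limma), and the call was lost without P1 control replicate 1 or either P5 control replicate, with adjusted p up to 0.225. From P5 to P10 NGO, 2 of 21 tested SWI/SNF partners rose and 6 fell (list median -0.30, all genes -0.47). Of all genes, 5.54% rose and 17.1% fell at this step. Bcl7b (40.8 to 5.02 TPM), Dpf2 (21.2 to 2.24), Smarcc1, a core scaffold (29.7 to 7.80), and Bcl7a (6.18 to 0.972) led those that fell. Of these, Bcl7b and Dpf2 held throughout. Smarcc1 was lost without P5 control replicate 1 or P10 NGO control replicate 1 (adjusted p 0.0894 and 0.0584). Bcl7a was lost under quantile normalization (0.206), with the compared groups only and without P5 control replicate 2 or P10 NGO control replicate 2.

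At that same step 4 of 11 ISWI partners fell and none rose (median -0.63), where 17.1% of all genes fell and 5.54% rose. Those that fell were Baz1a (29.9 to 0.799 TPM), Chrac1 (65.8 to 15.1), Baz2b (23.2 to 8.31) and Rbbp4 (52.5 to 30.6). The INO80, SRCAP and TIP60 list had 6 higher and 8 lower of 28 (median -0.90). Actr6, the SRCAP actin-related subunit, rose from 152 to 581 TPM and Uchl5, a deubiquitinase of INO80, from 101 to 429. Vps72, an H2A.Z chaperone, fell from 90.5 to 2.88 TPM and Dmap1 from 300 to 55.7. All 4 of these calls held throughout, as did those of Baz1a and Chrac1. Baz2b was lost under quantile normalization (0.0918), with the compared groups only and without P5 control replicate 2. Rbbp4 was lost in 4 of 7 other settings and without each library except P10 NGO control replicate 2, with adjusted p up to 0.250.

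Among HELLS and ATRX partners, the histone genes H3f3b (2040 to 4225 TPM) and H3f3a (108 to 42.0) moved in opposite directions at the P5 to P10 NGO step, though their values are uncertain because both have near-identical pseudogene copies, and Cdca7l, a relative of the HELLS activator CDCA7, fell from 14.6 to 2.63. Of 13 other SNF2 ATPases 3 fell: the recombination factor Rad54l (17.5 to 0.123 TPM), Rad54l2 (3.35 to 0.134) and Smarcad1 (3.57 to 0.640). Rad54l held throughout. H3f3b was lost with voom (adjusted p = 0.712), H3f3a with the compared groups only (0.0693) and without P5 control replicate 1 (0.0522), and Rad54l2 under quantile normalization (0.191). Cdca7l was lost in 4 of 7 other settings and without each library except P10 NGO control replicate 2 (adjusted p up to 0.245). Smarcad1 was lost under quantile normalization (0.700) and without each library except P10 NGO control replicate 1 (up to 0.194).

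Between non-growing and growing P10 controls, 3 of 11 ISWI partners rose and 4 fell (median -0.41, all genes 0). Of all genes, 11% rose and 13.2% fell at this step. Rbbp7, a histone-binding protein that also belongs to NuRD, rose from 571 ± 138 to 2683 ± 462 TPM and Baz1a (ACF1), the partner of SMARCA5 in ACF, from 0.799 ± 0.226 to 17.9 ± 3.77 (SD, n = 2). Rsf1, another SMARCA5 partner, fell from 11.2 to 1.74 TPM, and Chrac1 from 15.1 to 4.39. Rbbp7, Baz1a and Rsf1 held throughout. Chrac1 was lost with voom, with the compared groups only, and without P10 NGO control replicate 1 or P10 GO control replicate 2, with adjusted p up to 0.174.

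For the INO80, SRCAP and TIP60 list, 9 of 28 fell from NGO to GO and none rose (median -0.67), where 13.2% of all genes fell. Morf4l1 went from 137 to 40.0 TPM, Uchl5 from 429 to 120, Actr6 from 581 to 236 and Ino80c, an INO80 core subunit, from 20.1 to 1.33. All 4 held throughout. Ino80 itself was under 1 TPM in both groups.

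SWI/SNF partners at the NGO to GO step had 1 higher and 2 lower of 21 (median -0.45). Pbrm1, which defines the PBAF form, fell from 72.4 ± 5.51 to 16.4 ± 0.0203 TPM (log2 fold change -2.08, adjusted p = 0.000104 by limma), while Arid1a of the BAF form rose. Smarce1 fell from 86.3 to 31.7 TPM. Both held throughout. Smarcd2 rose from 0.644 to 11.9 TPM, and was lost without P10 GO control replicate 2 (adjusted p = 0.0736). H3f3a rose (42.0 to 89.2 TPM), and Daxx (10.4 to 0.922) and Cdca7 (10.6 to 1.09) fell. H3f3a was lost with the compared groups only and without each library except P10 NGO control replicate 1 (adjusted p up to 0.111), and Daxx without P10 NGO control replicate 2 (0.0987) or P10 GO control replicate 2 (0.139). Cdca7 was lost in 4 of 7 other settings and without each library except P10 NGO control replicate 1 (up to 0.264). Of the other SNF2 ATPases Smarcad1 (0.640 to 8.52 TPM) and Hltf (8.92 to 38.3) rose and Ercc6 (4.22 to 0.641) fell, of which Smarcad1 held throughout. Hltf was lost in 3 of 7 other settings and without each library except P10 NGO control replicate 1 (up to 0.381), and Ercc6 in 5 of 6 and without any of the 4 libraries (up to 0.167).

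In the knockout comparisons most partner calls were in growing oocytes. Of all genes, 13.8% passed there, against 1.7% at P1, 1.36% at P5, 1.92% in P10 NGO and 0% in spermatogonia. At P1 the single call was H3f3b (1449 ± 38.7 to 2878 ± 33.2 TPM, log2 fold change 0.99, adjusted p = 0.0161 by limma), which was lost without any 1 of the 4 libraries (adjusted p 0.0784 to 0.149) and with voom (0.978). At P5 and in spermatogonia no partner passed. At an unadjusted p under 0.05 were 4 of 80 at P5 (11.8% of all genes) and 8 of 83 in spermatogonia (16.1% of all genes). In P10 NGO Baz1a rose from 0.959 and 0.639 to 11.03 and 6.14 TPM (adjusted p = 0.00965) and Smarcad1 from 1.00 and 0.279 to 9.65 and 12.6 (adjusted p = 0.0119). Neither passed when only the 4 libraries compared were fitted (0.397 and 0.375), and Smarcad1 was at 0.0553 without P10 NGO control replicate 2.

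In growing oocytes 11 partners passed, where 13.8% of all genes passed, 9.12% higher and 4.69% lower. The INO80, SRCAP and TIP60 list had 3 higher and 1 lower of 28 (median 0.17, all genes 0.06). Ino80c, at 2.14 and 0.521 TPM in controls, was at 36.0 and 47.4 in knockouts (log2 fold change 4.28, limma adjusted p = 0.000559), and this call held throughout. Mcrs1 (0.979 to 8.86 TPM) and Vps72 (0.399 to 5.04) rose and Brd8 (31.8 to 10.1) fell. None of these 3 calls held throughout. Mcrs1 was lost with no filter, with voom, with the compared groups only and without each library except GO control replicate 1, with adjusted p up to 0.204. Vps72 was lost with no filter, under quantile normalization, with the compared groups only and without each library except GO knockout replicate 1 (up to 0.221). Brd8 was lost with voom, with the compared groups only and without each library except GO knockout replicate 1 (up to 0.146).

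The SWI/SNF partners that passed in growing knockouts were 3: Arid1b, the alternative to ARID1A (61.0 ± 6.32 to 23.0 ± 7.19 TPM), and Ss18 (12.9 to 1.98) fell, and Pbrm1 (16.4 to 31.1) rose. Arid1b was lost without GO control replicate 1 (adjusted p = 0.0686) or GO knockout replicate 2 (0.0648) and with the compared groups only (0.0628). Ss18 and Pbrm1 were lost without any 1 of the 4 libraries, with adjusted p up to 0.204 for Ss18 and from 0.0970 to 0.134 for Pbrm1. With voom and with the compared groups only both were lost too, as was Ss18 with a pseudocount of 0.1 (0.0520) and Pbrm1 under quantile normalization (0.110). The ISWI partners Cecr2 (49.1 to 24.8 TPM) and Rbbp7 (2683 to 1763) fell. Cecr2 was lost with the compared groups only (0.114) and without each library except GO knockout replicate 2 (up to 0.195). Rbbp7 was lost with no filter (0.0814), under quantile normalization (0.249), with the compared groups only (0.0706) and without each library except GO control replicate 2 (up to 0.297). H3f3b rose from 3609 to 7400 TPM (adjusted p = 0.00207, and 0.215 with voom). Smarcad1, at 10.0 and 7.03 TPM in controls, fell to 2.32 and 0.845, and was lost without either GO control replicate or GO knockout replicate 2 (adjusted p 0.0524 to 0.123) and with the compared groups only (0.113).

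**Figure D5:**
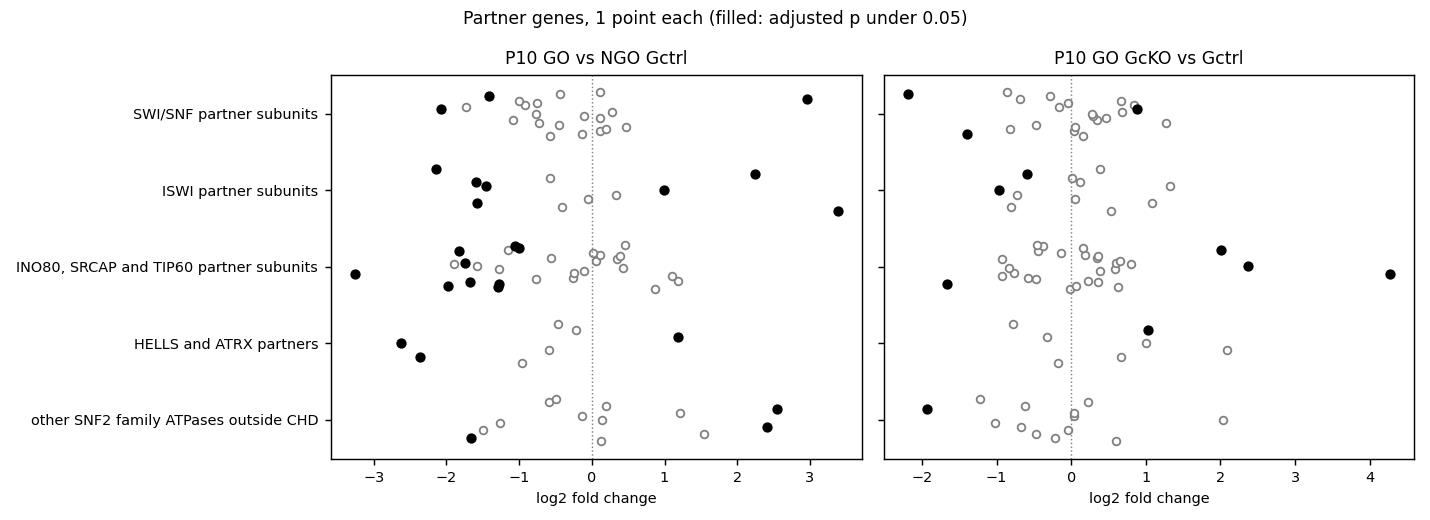
Log2 fold change of each tested partner gene (horizontal axis, on the log2(TPM + 1) scale) by list, for growing against non-growing control oocytes (left) and knockout against control growing oocytes (right); filled points have an adjusted p under 0.05, and vertical scatter has no meaning. On the left all 9 filled points of the INO80, SRCAP and TIP60 list are below 0, and on the right its point farthest to the right is Ino80c at 4.28.

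The genes whose levels were most like each member's over the 16 oocyte libraries were found by Pearson's r of log2(TPM + 1) among 10396 candidates; r is a description across libraries that share groups, with no test. For Smarca2 they were Zcchc10 (r = 0.978), Spin1 (0.976) and Pdcd7 (0.973), and for Smarca4 Rnf216 (0.951), Wasf2 (0.950) and Atp2b1 (0.950). Smarcb1 was closest to Napa (0.983), Sgta (0.982) and Akap8l (0.979). Arid1a was closest to Ddx3x (0.960), Haus3 (0.952) and Dyrk1a (0.952), and Smarca5 to Timmdc1 (0.960), Rsrc2 (0.957) and Cul3 (0.956). Ino80 had Map3k11 (0.970), Capza1-ps1 (0.966) and Eif4a1 (0.955). For Hells, Atrx and Ep400 the best values were lower: Mrfap1 (0.853), Psmd14 (0.845) and Esf1 (0.844) for Hells, Ybx3 (0.878), Zfp950 (0.878) and Ufsp2 (0.862) for Atrx, and Etfbkmt (0.830), Smad4 (0.822) and H2az2 (0.819) for Ep400. Smarca1, with 0 reads in 6 of 16 libraries, had Timp1 (0.836), Spo11 (0.821) and Igkv7-33 (0.803). Between members, Smarcb1 with Ino80 (0.881) and Smarca4 with Smarcb1 (0.851) had the highest r, and Smarca4 with Smarca2 (-0.838) and Smarcb1 with Arid1a (-0.895) had negative values.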

How the data were processed

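The data were 2 deposited tables of TPM, for the 16 oocyte and the 4 spermatogonia libraries. Per the submitters' processing notes the authors used GRCm38 with featureCounts 2.0.1, SAMtools 1.9, STAR 2.5.4b and Trimmomatic 0.39; annotation, strandedness and the making of TPM are not given in the sources used here. Overlapping and antisense genes may therefore share reads. Reads were recovered from TPM and GENCODE M21 union exon lengths (98.7% to 99.2% of values under 20 reads within 0.05 of a whole number). A limma 3.58.1 model (R 4.3.3, eBayes with trend) was fitted to log2(TPM + 1), with all 16 oocyte libraries together and the spermatogonia alone. Genes at or above 1 TPM in at least 2 libraries entered two-sided tests, adjusted over all tested genes by the Benjamini-Hochberg method, with a threshold of 0.05. On this scale changes of low genes are understated. All 10 members were tested in every comparison, but the text does not give every member's value in each. The partners past the test are named up to 4 per list and comparison, and the 3 genes of most like pattern per member. The alternatives were a pseudocount of 0.1, a filter at 5 TPM, no filter, quantile normalization, a replicate block, voom on recovered reads, a fit of the compared groups only, and leaving out each library. The members and lists were chosen with earlier results of these data known. The model was tested on simulated data. Figures were drawn with matplotlib 3.10.9 and tables made with pandas 2.3.3 and numpy 2.4.6 under Python 3.11.15.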

Additional observations from a re-analysis of the deposited data

Results flagged for a closer look

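For 3 partner genes the knockout effect differed between growing and non-growing P10 oocytes by limma's test of the difference. The difference, growing minus non-growing on the log2 scale, was 1.56 for Pbrm1 (adjusted p = 0.0243), 4.61 for Ino80c (adjusted p = 0.00791) and -4.84 for Smarcad1 (adjusted p = 0.00152). Ino80c was at 22.8 and 17.4 TPM in non-growing controls and 37.0 and 6.31 in non-growing knockouts, and its groups overlapped there. Smarcad1 was higher in the knockout among non-growing oocytes and lower among growing oocytes, and passed the test in each. The Smarcad1 difference remained past the threshold under every alternative run. That of Pbrm1 was lost without NGO control replicate 1, NGO knockout replicate 2 or either GO control replicate (adjusted p 0.0524 to 0.0640), and with only the compared groups fitted (0.161). That of Ino80c was lost with only the compared groups fitted (0.0861).

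In 3 members all DcKO libraries lay on opposite sides of their controls in P5 oocytes and in P3 spermatogonia. The log2 fold changes were -0.99 and 0.81 for Smarca2, 0.19 and -0.44 for Arid1a, and 0.69 and -0.29 for Hells. At P1 the knockouts of Smarca2 (0.35) and Hells (-0.31) lay on the same side of their controls as in spermatogonia, without overlap. Those of Arid1a overlapped their controls at P1 (-0.08). The differences between P5 oocytes and spermatogonia were not tested, since the tables were normalized separately. All members except Ino80 lay apart from their controls at P5. The share of all genes with opposite sides was not counted.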

How the results depend on the processing

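Over all member values and alternatives, 1102 kept their side of the threshold, 38 lost the call, 11 gained it and none of the called values reversed. The 1102 include uncalled values whose sign turned, some of which are given below. The count of members past the test in growing knockouts was 1, and 2 with a filter at 5 TPM and with quantile normalization, and ranged from 0 to 1 when a library was left out. From P1 to P5 it was 1, and 2 with quantile normalization, 2 with voom and 4 with the compared groups only, and 0 to 1 with a library left out. From P5 to P10 NGO it was 7, and 6 with no filter and with quantile normalization, 5 with the compared groups only and 4 with voom, and 2 to 5 with a library left out. From NGO to GO controls it was 4, and 3 with quantile normalization and with voom, 2 with the compared groups only, and 2 to 3 with a library left out. In P10 NGO knockouts it was 0, and 1 with voom. For the difference between growing and non-growing knockout effects it was 0, and 1 with quantile normalization and 2 with voom. The cause of these shifts was not tested.

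Counts over all genes moved further. With 1 library left out the P1 knockout count of 348 became 71 to 235, the P5 count of 278 became 22 to 396, and the P10 NGO count of 393 became 282 to 1260. The growing knockout count of 2827 became 1744 to 2520, the P1 to P5 count of 962 became 249 to 486, and the P5 to P10 NGO count of 4639 became 2569 to 3687. In spermatogonia 0 became up to 24. The difference between growing and non-growing effects gave 900 to 2168 against 1527, and that between P5 and P1 gave 16 to 90 against 64. Other settings gave 190 to 467 at P1, 0 to 449 at P5, 0 to 939 in P10 NGO, 1527 to 3346 in GO, 0 to 56 in spermatogonia, 818 to 2358 from P1 to P5, 385 to 1892 for the growing minus non-growing difference and 10 to 318 for P5 minus P1.

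Replicate numbers are shared between groups but nothing says that they pair libraries, and the correlation of replicate differences ran from -0.0492 to 0.0447. With the replicate block the counts of members past the test were 0 at P1, P5, P10 NGO and P3, 1 in GO knockouts, and 1, 7 and 4 for the control steps. With the block 7 named partner calls no longer passed (adjusted p 0.0518 to 0.0570): Pbrm1, Cecr2 and Rbbp7 in growing knockouts, Rbbp4 from P5 to P10 NGO, and Cdca7, Ercc6 and Hltf from NGO to GO. Quantile normalization also moved the median log2 fold change of all genes from 0.09 to -0.07 in spermatogonia. It turned the sign of uncalled values of Ep400 in 3 comparisons and of Smarcb1 in growing knockouts (0.29 to -0.10), and voom turned Atrx from P5 to P10 NGO (0.16 to -0.08) and Smarca5 in the growing minus non-growing difference (-0.11 to 0.05). With 2 libraries a group, effects that did not pass may be under what this number of libraries can show. Values of Smarca1 and Ino80 at P10 rest on few reads.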
